A study of Mus musculus with 17 samples.

Results

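The genes described here were 10 genes of antigen presentation by the major histocompatibility complex (MHC): H2-K1, H2-D1 and B2m, which make up classical class I molecules, Tap1 and Tap2, which supply them with peptide, H2-Aa, H2-Ab1 and Cd74, which make up class II molecules and their chaperone, and Nlrc5 and Ciita, the transactivators of the 2 classes. They were taken by name for their place in this pathway, not for their values, although earlier results of these data were known. All 10 were among the 24498 gene symbols of the count table. The 17 bulk libraries, in 6 groups, were made from polyadenylated RNA of the dorsal hippocampus of mice, sliced so as to hold CA1 to CA3 and the dentate gyrus. Mice were wild type (WT) or constitutive knockouts of Acss2 (KO), whose enzyme turns acetate into acetyl-CoA, a substrate of histone acetylation. When 6 months old, they were injected in the dorsal hippocampus with either AD-Tau, which is tau extracted from brains with Alzheimer's disease (Tau), or the buffer alone (PBS). Of males there were 3 libraries each of WT PBS, WT Tau, KO PBS and KO Tau, and of females 2 of WT Tau, 3 of KO Tau and none after PBS. WT and KO mice came from separate crosses of WT and of KO parents, so that genotype and breeding line cannot be told apart. Tissue was taken 6 months after the injection from mice perfused with saline and fixative. The comparisons asked how these genes differed with Tau, with the loss of Acss2, with both, and between the sexes under Tau.

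Class I molecules display peptides made inside the cell on nearly every cell type: a heavy chain such as H2-K1 or H2-D1 pairs with beta-2 microglobulin (B2m), and the Tap1-Tap2 transporter carries peptides into the endoplasmic reticulum. Class II molecules, a pair of an alpha and a beta chain such as H2-Aa and H2-Ab1, display peptides from outside the cell on professional antigen-presenting cells, and Cd74, the invariant chain, blocks and escorts them until peptide is loaded. In the brain, class II is known from macrophages at the borders, from rare dendritic cells and from microglia in disease. Nlrc5 and Ciita do not bind DNA themselves. They act on a factor complex of Rfx5, Rfxap, Rfxank, Creb-family proteins and NF-Y that sits on the X and Y boxes of the class I and class II promoters.

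Levels are given in CPM, a gene's count scaled to the total of its library. These totals lay between 14183131 and 22463635 counts. The limit that a count of 0 allows, 3 counts, was 0.134 to 0.212 CPM, which covers counting error only. Acss2 itself ranged from 3.07 to 8.81 CPM among the 9 KO libraries, against 44.0 to 54.6 CPM among the 8 of WT, without overlap. Each library goes by its label's number, which opens with 7 in males and with 3 in females. Some libraries stood apart in what the slice held. Summed over 6 markers of dentate granule cells, 751 and 711 reached 470 and 356 CPM, the highest of their groups and of all 17 libraries, and 752 and 712 only 54.2 and 67.0 CPM. Summed over 10 choroid plexus markers, 713 reached 4063 CPM where the other libraries ranged from 24.5 to 583 CPM.

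RefSeq promoters (GRCm38.p6, from 250 bases before to 50 after a start site) were read for 5 of the 10 members: B2m, H2-K1, H2-D1, Tap1 and H2-Aa. Entries for Tap2, Nlrc5, Ciita, H2-Ab1 and Cd74 were missing. The windows below are shown because 4 of these 5 promoters share a stretch with matches to the X2 and Y box motifs, the elements through which Nlrc5 and Ciita are known to act. Capitals mark matches to TGACG (the core of the X2 box or CRE, whose reverse complement is CGTCA), to ATTGG (the Y box CCAAT read on the other strand) and to CNNGCAAC (an X1-like motif, whose reverse complement is GTTGCNNG). In H2-Aa, TGACG and CGTCA overlap in 1 run of capitals.
B2m, chr2:122147579-122147653, + strand: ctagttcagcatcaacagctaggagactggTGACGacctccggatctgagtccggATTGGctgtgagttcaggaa
H2-K1, chr17:34000344-34000418, - strand: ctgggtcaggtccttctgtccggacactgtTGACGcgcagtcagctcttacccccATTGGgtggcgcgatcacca
H2-D1, chr17:35262963-35263037, + strand: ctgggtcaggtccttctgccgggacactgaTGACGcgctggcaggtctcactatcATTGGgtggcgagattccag
H2-Aa, chr17:34287852-34287927, - strand: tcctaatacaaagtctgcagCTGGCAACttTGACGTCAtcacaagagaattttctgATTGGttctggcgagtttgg

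From the first base of TGACG to the first base of ATTGG, the distance was 25 bases in B2m, H2-K1 and H2-D1 and 26 bases in H2-Aa. The motif TGACG followed by ATTGG on the same strand after 15 to 40 bases occurred in 140 of 32851 promoters of the same length, or 0.426%, a distance range set after these 4 promoters had been seen. Tap1 had a match to the X2 core, the Y box and the X1-like motif, but not this pair. Of the single motifs, searched on both strands, TGACG or its reverse complement was present in 20.8% of all promoters, CCAAT in 37.4%, the X1-like motif in 11.2%, AANNGAAA (the IRF core, whose reverse complement is TTTCNNTT) in 23.9% and TTCNNNGAA (the GAS motif, its own reverse complement) in 8.3%. The IRF core was matched once each in B2m, H2-K1, H2-D1 and H2-Aa and not in Tap1, and GAS was matched in none of the 5. A match describes letters and is not a site of binding, and no match says only that these letters were not in this window.

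In position, 6 of the 10 genes lay in the MHC region of chromosome 17 (GRCm38): H2-K1 at chr17:33996017-34000347, Tap1 at chr17:34187553-34197225, Tap2 at chr17:34203527-34216321, H2-Ab1 at chr17:34257689-34269419, H2-Aa at chr17:34282744-34287823 and H2-D1 at chr17:35262730-35267499. The 4 others were on other chromosomes, Nlrc5 at chr8:94434356-94527272, Ciita at chr16:10480059-10528418, Cd74 at chr18:60803848-60812652 and B2m at chr2:122147686-122153083. B2m shared its chromosome with Acss2, 33.4 Mb away.

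Levels of the members spanned nearly 3 orders of magnitude per length of transcript. On the RPKM scale, which is CPM divided by the length of the merged exons in kilobases, the medians over the 17 libraries were 95.8 for B2m, 12.3 for H2-K1, 4.74 for H2-D1, 4.36 for Tap2, 3.40 for Cd74, 0.909 for Tap1, 0.706 for H2-Ab1, 0.538 for H2-Aa, 0.138 for Ciita and 0.123 for Nlrc5. B2m, the shared light chain, thus led, and both transactivators came last, at a median of 19 counts per library for Nlrc5 and 25 for Ciita. H2-D1 and Tap2 were neighbours whose ranges overlapped almost wholly, at 2.71 to 6.46 and 3.54 to 5.30 RPKM, and so were H2-Ab1 and H2-Aa, at 0.138 to 1.96 and 0.134 to 1.33 RPKM. H2-K1 and H2-D1 are close paralogs, so how their reads were split between them is uncertain.

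The spread between libraries of 1 group set the members apart as well. Pooled over the 6 groups, the coefficient of variation of CPM within a group was 12.8% for Tap2, 14.1% for Tap1, 16.2% for B2m, 19.0% for H2-K1 and 22.2% for H2-D1. It was 26.0% for Nlrc5 and 27.3% for Ciita, and 45.6% for Cd74, 52.0% for H2-Ab1 and 55.2% for H2-Aa. The class II genes thus varied most between libraries of 1 group. Over all 17 libraries, differences between groups included, H2-Ab1 ranged over 14.2-fold and H2-Aa over 9.93-fold, against 1.5-fold for both Tap genes. Their counts were low too, from 7 to 83 for H2-Ab1 and from 10 to 91 for H2-Aa.

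**Figure D1:**
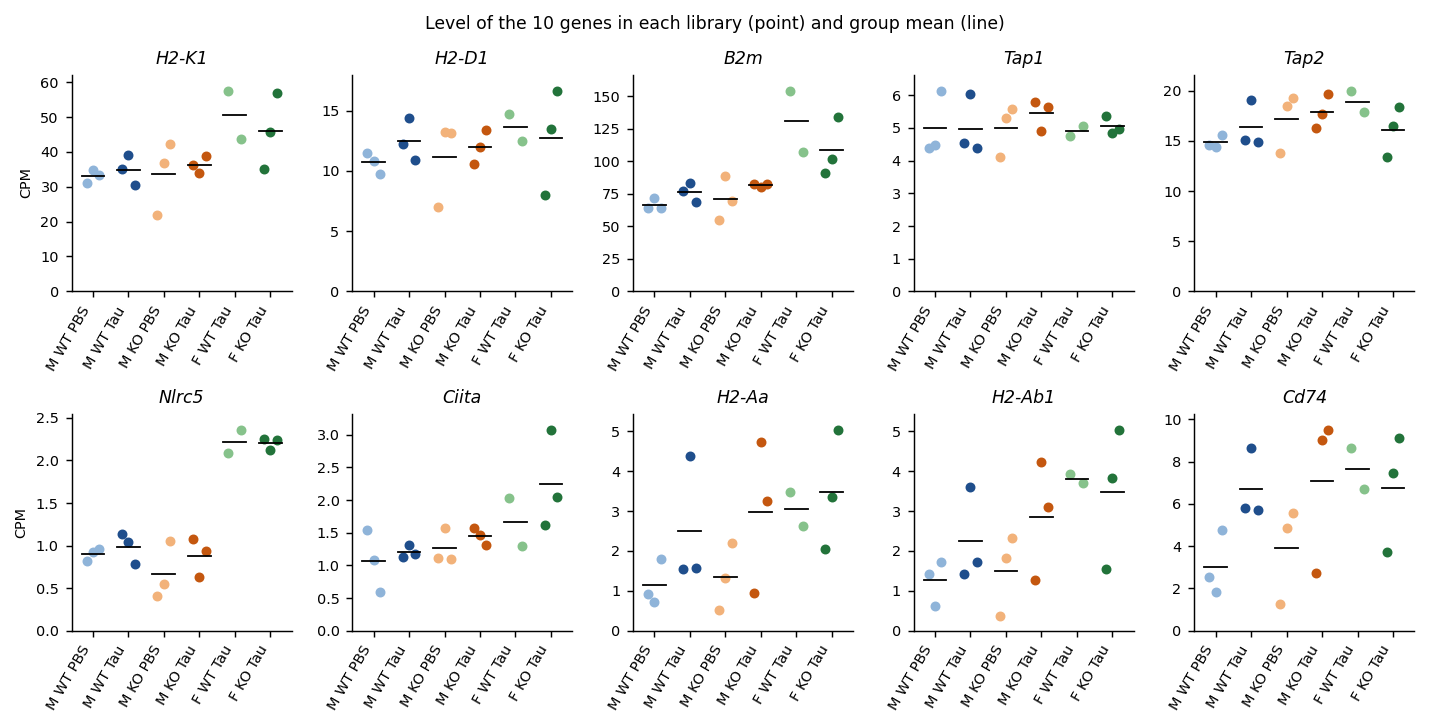
Level of each of the 10 genes (CPM, linear axes from 0; M, male, F, female) in the 17 libraries (points) of the 6 groups (horizontal lines are group means). The 5 females lie between 2.08 and 2.36 CPM for Nlrc5, and all males at or below 1.13 CPM, while the class II genes in the bottom row spread widely within single groups.

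Among the class II genes, Cd74 stood at 2.52, 1.81 and 4.77 CPM in male WT PBS (791, 792, 793) and at 5.78, 8.66 and 5.71 CPM in male WT Tau (771, 772, 773). In the male KO it stood at 1.27, 4.84 and 5.58 CPM after PBS (751, 752, 753) and at 2.71, 9.02 and 9.5 CPM after Tau (711, 712, 713). All 3 WT Tau libraries were above all 3 WT PBS libraries, whereas in the KO library 711 of the Tau group fell between the PBS libraries. The fitted log2 difference of Tau from PBS, averaged over genotype, was 0.98 (SE 0.39), being 1.14 (SE 0.56) in WT and 0.83 (SE 0.54) in KO.

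H2-Aa, the alpha chain, stood at 0.932, 0.723 and 1.79 CPM in male WT PBS and at 1.55, 4.38 and 1.57 CPM in male WT Tau. In male KO PBS it stood at 0.507, 1.33 and 2.20 CPM and in male KO Tau at 0.946, 4.74 and 3.25 CPM. Tau and PBS libraries overlapped in both genotypes, 1 WT Tau library (772) and 2 KO Tau libraries (712, 713) being well above the rest. The averaged log2 difference was 1.11 (SE 0.46), with 1.11 (SE 0.66) in WT and 1.10 (SE 0.64) in KO.

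For H2-Ab1, the beta chain, the values were 1.42, 0.620 and 1.73 CPM in male WT PBS and 1.43, 3.62 and 1.72 CPM in male WT Tau. In male KO PBS they were 0.355, 1.81 and 2.33 CPM and in male KO Tau 1.26, 4.22 and 3.11 CPM. The same 3 Tau libraries, 772, 712 and 713, were the high ones, and the groups overlapped. Averaged over genotype, the log2 difference was 0.87 (SE 0.44), with 0.84 (SE 0.64) in WT and 0.90 (SE 0.62) in KO.

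**Figure D2:**
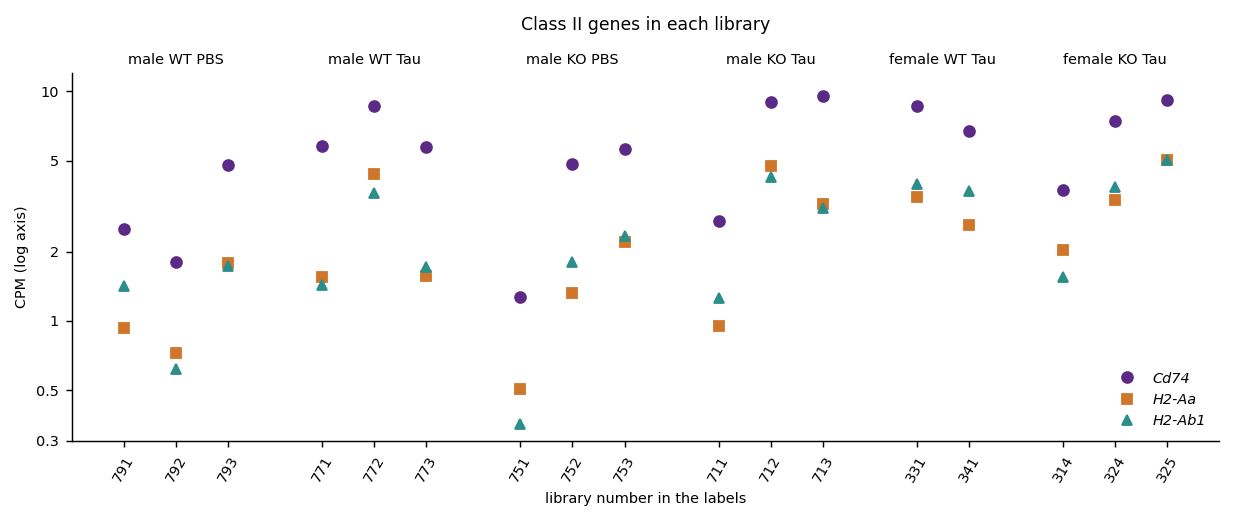
Cd74, H2-Aa and H2-Ab1 (CPM, log axis) in each of the 17 libraries, in their 6 groups along the horizontal axis, with the library number of the labels below. The 3 genes move together from library to library: all 3 are lowest in 751 among the KO PBS libraries, in 711 among the KO Tau libraries and in 792 among the WT PBS libraries.

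None of these differences passed the test over all genes. In the fit of the 12 male libraries (edgeR quasi-likelihood test, 15098 genes, false discovery rate, FDR, of 0.05), 0 of the 10 members were called for Tau against PBS averaged over genotype, where 0% of all genes were called, and the FDR of Cd74, H2-Aa and H2-Ab1 was 0.888. At an unadjusted p under 0.05, Cd74 and H2-Aa were higher, 2 of the 10 members, against 2.79% of all genes that were higher at that threshold. All 10 members had positive log2 differences, with a median of 0.16 against -0.01 over all genes tested, of which 47.0% were positive. Outside class II these were small: 0.22 (SE 0.25) for Nlrc5, 0.17 (SE 0.10) for B2m, 0.16 (SE 0.22) for Ciita, 0.14 (SE 0.15) for H2-D1, 0.07 (SE 0.10) for Tap2, 0.07 (SE 0.13) for H2-K1 and 0.03 (SE 0.14) for Tap1. Neither of the single steps gave a call or an unadjusted p under 0.05 among the members, with 0 of 10 called and 0% of all genes for WT Tau against WT PBS and likewise for KO Tau against KO PBS. In CPM, Cd74 was the only member whose WT Tau libraries all lay above the WT PBS libraries, a gap that 6.84% of all genes had in that direction.

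Markers of some other cells, but not of all, were also mostly higher after Tau in these males. In bulk tissue fewer cells of a type and less RNA per cell cannot be told apart. Summed over 9 markers of border macrophages, the level was 21.5 to 22 CPM in WT PBS, 20.8 to 33.5 in WT Tau, 19.5 to 29.5 in KO PBS and 26.1 to 30.5 in KO Tau. Its highest library was 772 in WT Tau and 712 in KO Tau, where H2-Aa was highest as well. Its lowest was 751 in KO PBS and 711 in KO Tau, where all 3 class II genes were lowest. In WT PBS, however, its lowest library was 793 (21.5 CPM), where all 3 class II genes were highest. Of the 7 border macrophage markers tested, 7 had positive differences of Tau from PBS averaged over genotype, against 4 within KO alone, and 0 were called. Of 14 microglia markers, 14 had positive differences and 0 were called, but their sum did not follow class II by library. It was highest of all males in 711 (768 CPM) and lowest of the KO Tau libraries in 712 (558 CPM). Libraries 751 and 711 also had the highest dentate granule sums, given above. Of the 10 choroid plexus markers, 10 had positive differences and 8 an unadjusted p under 0.05. Of 5 dendritic cell markers tested, only 3 had positive differences, and of 9 endothelial markers 3, with 0 called in either list. The dendritic sum was 14.3 to 17.2 CPM in WT Tau, highest in 773, against 13.5 to 17.9 CPM in WT PBS. T and NK cell markers summed to 7.86 CPM in 752 and to at most 1.22 CPM in the other male libraries. Nearly all of the sum in 752 was Cd4, at 7.74 CPM. Cd3d, Cd3e, Cd3g and Cd8a were at most 0.0915 CPM in the KO PBS libraries. B cell markers summed to 0.544 to 1.75 CPM in males. The part of these cells in the class II values was not tested.

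Loss of Acss2 gave no call among the members. For KO PBS against WT PBS, KO Tau against WT Tau and KO against WT averaged over treatment, 0 of 10 members and 0.00662% of all genes (1 gene) were called. The averaged log2 differences ran from -0.25 (SE 0.25) for Nlrc5 to 0.34 (SE 0.44) for H2-Ab1, with a median of 0.17 against 0.00 over all genes, and 9 of the 10 were positive. None of the 10 had an unadjusted p under 0.05, and the lowest was that of Tap2, the second subunit of the peptide transporter. Tap2 stood at 14.6, 14.4 and 15.6 CPM in WT PBS, at 15.1, 19.1 and 14.9 in WT Tau, at 13.8, 18.5 and 19.3 in KO PBS and at 16.3, 17.7 and 19.7 in KO Tau. Library 751 was below all WT libraries and 772 was among the high KO values, so that the genotypes overlapped. Its averaged difference was 0.21 (SE 0.10), with 0.26 (SE 0.14) after PBS. Tap1, the first subunit, differed by 0.10 (SE 0.14), B2m by 0.13 (SE 0.10), H2-K1 by 0.08 (SE 0.13) and H2-D1 by 0.03 (SE 0.15). Cd74 differed by 0.26 (SE 0.39), H2-Aa by 0.29 (SE 0.46) and Ciita by 0.28 (SE 0.22). Cell markers shifted with genotype as well, with 0 called. In the average over treatment, 7 of 7 border macrophage markers were positive, with a median of 0.18, and of 0.49 for KO PBS against WT PBS. So were 10 of 10 choroid plexus markers and 10 of 14 microglia markers, but only 3 of 9 endothelial markers. The part of these cells in the values of the members was not tested.

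The transactivators had few counts. Nlrc5 was counted 8, 9 and 23 times in the KO PBS libraries and 15, 18 and 16 times in the WT PBS libraries, or 0.406, 0.544 and 1.05 against 0.822, 0.930 and 0.955 CPM. Of the KO libraries 2 were below and 1 was above all WT libraries, and the log2 difference was -0.36 (SE 0.36). Ciita stood at 1.58, 1.46 and 1.32 CPM in KO Tau against 1.13, 1.31 and 1.18 CPM in WT Tau, which did not overlap but came close to it. It was the only member with that separation between these groups, which 3.85% of all genes had in that direction, and its log2 difference was 0.28 (SE 0.30).

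**Figure D3:**
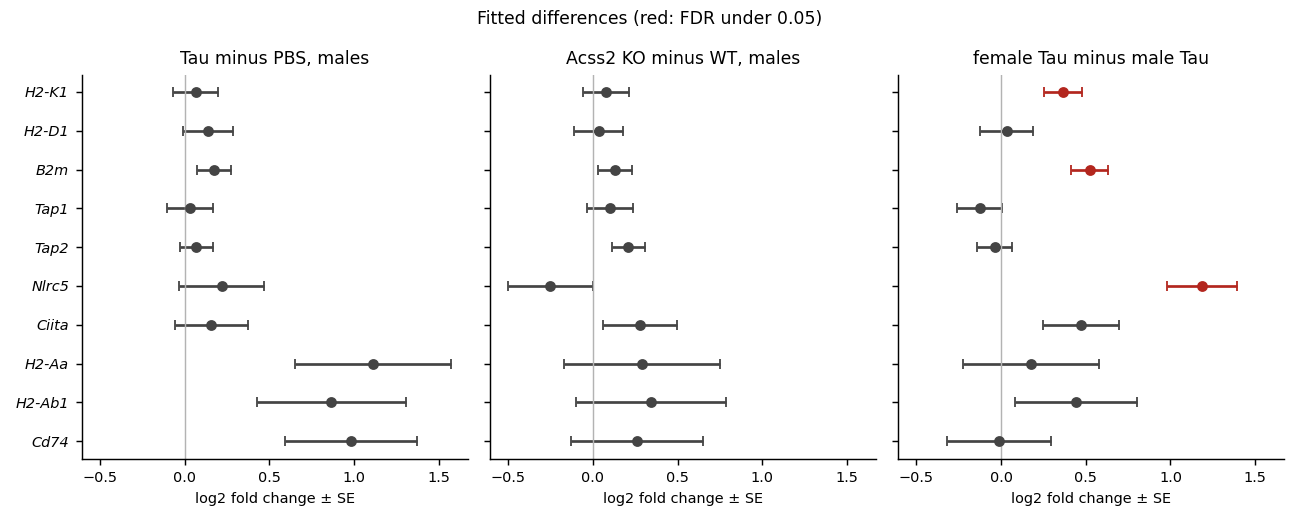
Fitted log2 fold changes with SE (bars) of the 10 genes for Tau minus PBS and KO minus WT in the 12 male libraries and for female minus male in the 11 Tau libraries. No gene is called in the first 2 panels, in which the class II genes have the longest bars, and Nlrc5, B2m and H2-K1 (red) are called in the third.

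For KO Tau against WT PBS, which combines both changes, 0 of 10 members were called and 0.00662% of all genes. B2m stood at 82.6, 80.5 and 82.4 CPM in KO Tau against 64.2, 72.0 and 63.8 CPM in WT PBS. B2m and Tap2 were 2 members whose KO Tau libraries all lay above the WT PBS libraries, as did 6.29% of all genes. The log2 difference was 0.30 (SE 0.14) for B2m and 0.28 (SE 0.14) for Tap2. Those of the class II genes were larger and less certain, 1.24 (SE 0.56) for Cd74, 1.40 (SE 0.66) for H2-Aa and 1.21 (SE 0.63) for H2-Ab1, all with an FDR of 0.784 to 0.816. Cd74 was thus 1 of 10 members higher at an unadjusted p under 0.05, where 3.52% of all genes were.

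Calls among the members appeared here only when library 711 was left out and the fit was limited to these groups. The study gives fewer mice for male KO Tau than the labels do, without saying which. Without 711 but with the other male groups in the fit, edgeR still called 0 members, with 1.62 (SE 0.50, FDR 0.395) for Cd74. With 711 and only these groups, edgeR and DESeq2 called 0 as well. In a fit of only these groups without 711, DESeq2 called 3 of the 10 members, Cd74 at 1.62 (SE 0.38, adjusted p = 0.000733), H2-Aa at 1.81 (SE 0.47, adjusted p = 0.00361) and H2-Ab1 at 1.56 (SE 0.47, adjusted p = 0.0184), and 7.30% of all genes with an adjusted p. edgeR called 2 of them, Cd74 (adjusted p = 0.0365) and H2-Aa (adjusted p = 0.0364), with 0.0543 for H2-Ab1, and 4.15% of all genes. Leaving out any of the other 5 libraries of the 2 groups instead gave 0 called members with either tool. Over all genes, DESeq2 on only these groups called 1032 without 711, 52 without 712, 7 without 713 and 22 with all libraries. Only the first of these numbers comes near the number of genes that the study reports for this comparison. In 711 all 3 class II genes were near the WT PBS level, as given above, and the dentate granule sum was high. Its sums of astrocyte markers (2454 CPM) and endothelial markers (278 CPM) were the highest of the males too. The next highest were 1733 CPM in 772 and 229 CPM in 753. The part of the slice and its cells in this was not tested.

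The effect of Tau was not shown to differ between the genotypes. For the genotype by treatment interaction, 0 of 10 members and 0% of all genes were called, none of the members had an unadjusted p under 0.05, and the log2 values ran from -0.31 (SE 0.78) for Cd74 to 0.22 (SE 0.50) for Nlrc5, each smaller than its SE. These SEs leave room for sizeable differences in class II in either direction.

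Female mice under Tau gave the only calls. Nlrc5, the class I transactivator, was counted 36 and 53 times in female WT Tau (331, 341) and 32, 31 and 36 times in female KO Tau (314, 324, 325), against 12 to 20 times in the 6 male Tau libraries. In CPM this was 2.08 and 2.36, then 2.26, 2.12 and 2.24, against 0.625 to 1.13. All 5 female libraries were above all males, and the log2 difference averaged over genotype was 1.18 (SE 0.21, FDR 0.00669).

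B2m stood at 154 and 107 CPM in female WT Tau and at 91.3, 101 and 134 CPM in female KO Tau. The male Tau libraries reached 68.4 to 83.7 CPM, so that these groups did not overlap either. The log2 difference was 0.52 (SE 0.11, FDR 0.0103), which became 0.39 (SE 0.10, FDR 0.0577) without library 331, the highest for B2m.

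H2-K1 stood at 57.6 and 43.7 CPM in female WT Tau, at 35.2, 45.6 and 56.8 CPM in female KO Tau and at 30.5 to 39.2 CPM in the male Tau libraries. Library 314 lay among the males, and the other 4 females were above them. The log2 difference was 0.36 (SE 0.11, FDR 0.0398). This call was lost in the fit of all 17 libraries (FDR 0.0694), on leaving out any 1 of 324, 325, 331, 712, 713, 771 and 773 (FDR 0.0658 to 0.187), and when the counts of H2-K1 and H2-D1 were summed (0.29, SE 0.12, FDR 0.0985).

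Together 3 of 10 members were called, all higher in females, where 23.8% of all genes were called and 11.4% were called higher. Nlrc5 and B2m were 2 members without overlap, which 6.76% of all genes showed in that direction. The remaining members were not called: 0.47 (SE 0.22) for Ciita, 0.44 (SE 0.36) for H2-Ab1, 0.18 (SE 0.40) for H2-Aa, 0.03 (SE 0.16) for H2-D1, -0.01 (SE 0.31) for Cd74, -0.04 (SE 0.10) for Tap2 and -0.13 (SE 0.13) for Tap1. The 3 class II genes, at 2.04 to 5.04 CPM for H2-Aa and 3.74 to 9.14 CPM for Cd74 in females, overlapped the male Tau range. Because males and females also differ in how their libraries were numbered, sex cannot be told apart from anything else that separated the 2 sets, and no female received PBS.

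Several cell markers moved with sex, in both directions. Of 9 border macrophage markers 7 were called higher in females, with sums of 38.6 to 56.7 CPM against 20.8 to 33.5 CPM in male Tau. Called higher too were 6 of 14 microglia markers (741 to 900 against 558 to 768 CPM), 6 of 9 endothelial markers (290 to 397 against 180 to 278 CPM) and 3 of 5 astrocyte markers (2403 to 4095 against 1173 to 2454 CPM). Of 5 markers of CA1 pyramidal cells 2 were called lower in females, with a median of -0.52. Of 10 choroid plexus markers 0 were called and 5 were lower at an unadjusted p under 0.05, with a median of -2.18. The part of these cells in the values of Nlrc5, B2m and H2-K1 was not tested.

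Between female KO Tau and female WT Tau, 0 of 10 members and 0.00649% of all genes were called. The log2 differences ran from -0.22 (SE 0.16) for B2m to 0.50 (SE 0.33) for Ciita, with -0.19 (SE 0.15) for Tap2, and none had an unadjusted p under 0.05. For the sex by genotype interaction, 0 of 10 members and 0% of all genes were called, with no unadjusted p under 0.05 and values from -0.47 (SE 0.72) for H2-Ab1 to 0.22 (SE 0.45) for Ciita. DESeq2 and limma voom on the same libraries also called 0 members in every comparison other than female against male.

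Other genes of the pathway, from lists chosen by function, were read beside the members. Their calls between female and male Tau stand beside the 23.8% of all genes called there, with 11.4% called higher. An unadjusted p under 0.05 there was reached by 39.8% of all genes in either direction. Of 22 other class I heavy chains, H2-Q6, H2-Q7 and H2-T9 had a count of 0 in every library, whereas H2-T23, the mouse gene of Qa-1, ranged from 6.39 to 26.7 CPM. Reads shared by close paralogs may not be counted for any of them, so a count of 0 does not show that a gene was silent. In males 0 of 13 tested were called in any comparison. H2-Q1 was higher after Tau than after PBS at an unadjusted p under 0.05 (1.46, SE 0.58, FDR 0.888) at only 1 to 33 counts, and Fcgrt, the neonatal Fc receptor chain, was higher in KO Tau than in WT PBS at an unadjusted p (0.40, SE 0.16, FDR 0.783). Between female and male Tau 5 of 12 were called: Mr1 (0.62, SE 0.11), which presents vitamin metabolites, H2-T24 (0.55, SE 0.13), H2-Q4 (0.61, SE 0.15) and Cd1d1 (1.02, SE 0.33), which presents lipids, were higher and H2-Q1 (-1.89, SE 0.61) was lower.

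Of 12 genes that make, trim or load class I peptides, 0 were called in males. Psme2, a subunit of the proteasome activator, stood at 20.3 to 22.7 CPM in KO Tau against 16.7 to 19.2 CPM in KO PBS (0.27, SE 0.09, FDR 0.550). In females against males 1 of 12 was called, a smaller share than that of all genes. It was Psmb8, a catalytic subunit of the immunoproteasome (0.71, SE 0.19, FDR 0.0251), at 6.13 to 11.8 CPM against 3.99 to 8.14 CPM. At an unadjusted p under 0.05, 3 of the 12 were higher, Erap1 among them (0.26, SE 0.12, FDR 0.122). Tapbp was the 1 that was lower (-0.26, SE 0.10, FDR 0.0817).

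Of 14 other class II genes 8 could be tested, and 0 were called in males, although all 8 had positive differences of Tau from PBS, with a median of 0.30. H2-DMb1, a chain of the peptide-loading catalyst, had a difference of 0.62 (SE 0.21) and Ifi30, a thiol reductase of the loading compartment, 0.55 (SE 0.21), both at an unadjusted p under 0.05 with an FDR of 0.888. In females against males Ctss, the cathepsin that trims Cd74, was called higher (0.80, SE 0.13, FDR 0.00602), and so was Ifi30 (0.62, SE 0.19, FDR 0.0404), while Cd74 itself was not. At an unadjusted p under 0.05, 3 of the 8 were higher in females and 1 was lower, H2-DMa (-0.29, SE 0.11, FDR 0.0778).

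Among the RFX and Y-box factors, Rfx5 stood at 24.5, 24.4 and 22 CPM in male WT PBS and at 16.1, 18.9 and 18.7 CPM in male KO PBS. All KO PBS values were below all WT PBS values, as 11.7% of all genes had groups without overlap in either direction, with a log2 difference of -0.35 (SE 0.10, FDR 0.999). In the Tau groups it was 19.3, 21.8 and 21.2 CPM in WT and 20.9, 17.8 and 18.3 CPM in KO, which overlapped, and averaged over treatment the difference was -0.23 (SE 0.07, FDR 0.945). KO Tau was also below WT PBS without overlap, as for 14.4% of all genes in either direction, by a log2 difference of -0.31 (SE 0.10, FDR 0.783). Each of these differences of Rfx5 had an unadjusted p under 0.05. In either direction 4.42% of all genes did for KO PBS against WT PBS, 4.58% for the average and 6.33% for KO Tau against WT PBS. In the KO against WT average over treatment Rfxap differed by -0.10 (SE 0.08), and Rfxank, Creb1, Nfya, Nfyb and Nfyc by less than their SE. Of the 7 factors 0 were called in males, and in females against males Rfxap (-0.32, SE 0.07, FDR 0.0159) and Nfyc (-0.45, SE 0.12, FDR 0.0266) were called lower.

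Interferon gamma, the main inducer of Ciita and Nlrc5, was counted 0 to 2 times in every library, within the limit that a count of 0 allows. Of 12 genes of its receptor, signalling and IRF factors 0 were called in males. Some had an unadjusted p under 0.05. Jak1 was lower in KO Tau than in KO PBS (-0.27, SE 0.09, FDR 0.550). Socs1, at 6 to 27 counts, was higher in KO Tau than in WT Tau (0.88, SE 0.34, FDR 0.927). Irf9 was lower in KO than in WT averaged over treatment (-0.23, SE 0.10, FDR 0.945). Of all genes 7.95%, 4.71% and 4.58% had such a p in these comparisons, in either direction. In females against males 2 of 12 were called, where 23.8% of all genes were. They were Irf9 (0.54, SE 0.13, FDR 0.0156) and Ifngr1, a receptor chain (0.31, SE 0.08, FDR 0.0213), both higher. At an unadjusted p under 0.05, 4 of the 12 were higher, Irf8 among them (0.36, SE 0.14, FDR 0.0766), and 2 were lower.

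Members that act together were then compared library by library, as deviations of log2(CPM + 0.5) from the group mean over the 17 libraries, in 20 relations tested by permuting libraries within groups. The 2 chains of class II followed each other most closely: H2-Aa and H2-Ab1 had a Pearson r of 0.94 (permutation p = 9e-05, adjusted 0.0018) and a Spearman rho of 0.95 (p = 9e-05, adjusted 0.0018). H2-Aa and Cd74, on different chromosomes, had r = 0.92 (permutation p = 0.00029, adjusted 0.0029) and rho = 0.89 (p = 0.00029). Without the 2 libraries farthest in H2-Aa, 711 and 772, r was 0.93 and 0.92, and within the 12 males 0.94 and 0.91.

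H2-K1 and H2-D1 had r = 0.91 (permutation p = 0.00255, adjusted 0.017) and rho = 0.88 (p = 0.00187), 0.88 without 751 and 753 and 0.91 within males, with the limit that paralogs share reads. H2-K1 and B2m, the 2 chains of 1 molecule, had r = 0.83 (permutation p = 0.02, adjusted 0.1) and rho = 0.80 (p = 0.0139, adjusted 0.0695), which did not pass, with 0.91 without the same 2 libraries and 0.76 within males. Values of 1 library share its total and its slice, so that a common deviation does not tell these apart.

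No relation of a transactivator to its targets passed the adjusted threshold. Ciita had r = -0.03 with H2-Aa (permutation p = 0.894), 0.15 with H2-Ab1 (p = 0.602) and 0.01 with Cd74 (p = 0.970). Nlrc5 had r = 0.60 with Tap1 (permutation p = 0.0498, adjusted 0.187) and 0.56 with H2-K1 (p = 0.179), the latter falling to 0.12 without libraries 751 and 753. Within the 12 males, r was 0.59 with Tap1 and 0.76 with H2-K1. Its relations to B2m (r = 0.16), H2-D1 (0.32) and Tap2 (0.36) did not pass either. Rfx5 had r = 0.70 with B2m (permutation p = 0.0562, adjusted 0.187), 0.55 with H2-K1 and 0.08 with Cd74, and 0 of its 8 relations passed. At a median of 19 and 25 counts for Nlrc5 and Ciita, a relation may not have been detectable.

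**Figure D4:**
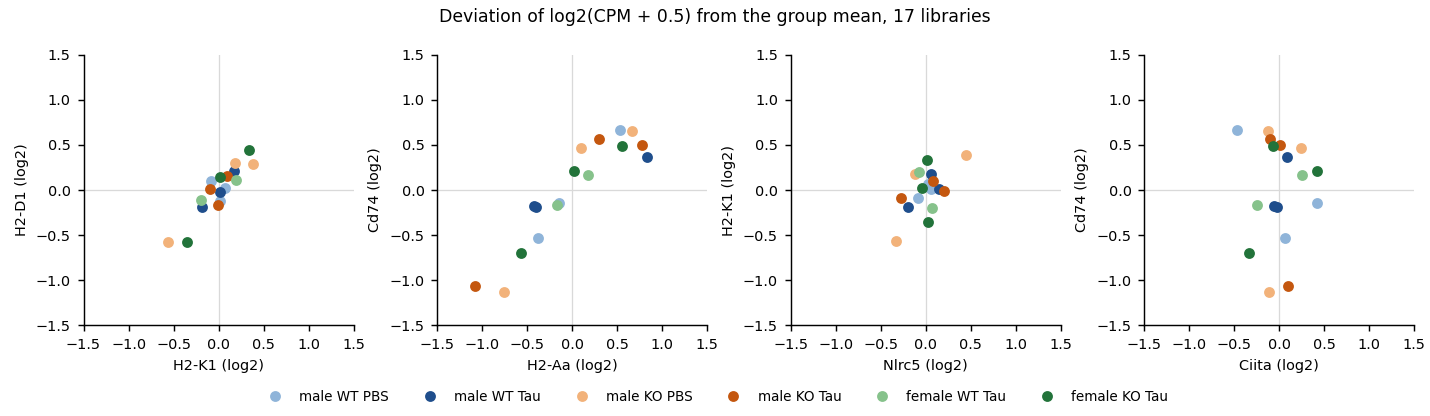
Deviation of each of the 17 libraries from its group mean, on the log2(CPM + 0.5) scale on both axes, for 4 of the 20 pairs. H2-D1 follows H2-K1 (r = 0.91) and Cd74 follows H2-Aa (r = 0.92), whereas r is 0.01 for Cd74 and Ciita and H2-K1 follows Nlrc5 mainly through 2 KO PBS libraries.

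Against the other 15097 genes tested in males, the gene most like Cd74 over the 17 libraries was H2-Ab1 (r = 0.94), and H2-Aa ranked at place 6. The genes outside the members that were most like it were H2-Eb1 (r = 0.93), the other class II beta chain, Mars (0.93), Asna1 (0.92), Ttc7 (0.92) and Gtf2ird1 (0.92). For H2-K1 they were Pknox1 (0.97), Rgs3 (0.95), Rin3 (0.92), Zfp775 (0.92) and Prkag1 (0.91), with H2-D1 at place 6, Tap2 at place 11 and B2m at place 48. These are descriptions over libraries that share depth and slice, without a test.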

How the data were processed

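The deposited table held unnormalized counts of reads for each gene symbol, which the authors made by aligning reads with STAR 2.5.2 to GRCm38 and counting exonic reads in reverse-stranded mode with HTSeq 0.9.1 (versions from the submitters' processing notes and methods). The annotation release was not given in the sources used here. Groups came from the labels, and as nothing beyond library numbers marks libraries as separate mice, p-values measure the spread between these libraries. The members, lists and tests were chosen with earlier results of these data known. From the counts, CPM (on the total of the library) and RPKM (on merged GENCODE exons of GRCm38) were computed. Tests used edgeR 4.0.16 (quasi-likelihood F-test, TMM, filterByExpr with minimum count 10 and minimum total 15, Benjamini-Hochberg over all genes tested, two-sided) in R 4.3.3, with 1 fit of the 12 male libraries for 8 comparisons (15098 genes) and 1 fit of the 11 Tau libraries for 3 (15419 genes). All 10 members passed the filter in both. The study's own test was DESeq2 on male libraries. DESeq2 1.42.0, limma 3.58.1 (voom with quality weights), RLE factors, no filter, other sets of libraries and leaving out each library were alternatives. The edgeR, DESeq2 and voom fits were tested on simulated counts, with the same spread for every gene. This was done for male WT Tau against WT PBS and for female against male Tau. The permutation tests and the motif search were not tested so. Relations used two-sided permutation tests with 100000 resamples and a pseudocount of 0.5 CPM. Named genes were the members, Acss2, the RFX and Y-box factors, genes of the lists at an unadjusted p under 0.05 (up to 3 per list and comparison) and the 5 genes most like H2-K1 and Cd74. A gene of the lists is not given for every comparison in which it reached this p. H2-T23, Cd1d1, the genes at 0, Ifng, Cd4, Cd8a and the Cd3 genes were named after their values were seen. No pair of the 136 pairs of libraries had identical counts.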

Additional observations from a re-analysis of the deposited data

How the results depend on the processing

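Over the members, 0 were called in 10 of the 11 comparisons under every alternative run, with the exception of KO Tau against WT PBS fitted on these groups alone without 711, where DESeq2 called 3 and edgeR 2 (the fits without each other library were added after seeing the data). Female against male kept 3 called members under DESeq2, RLE factors, no filter and voom, 2 in the fit of all 17 libraries and with H2-K1 and H2-D1 summed, and 1 to 3 on leaving out each library, the cause not being tested. Some uncalled log2 differences changed sign. Several were near 0, but others were not, such as -0.31 for Cd74 in the genotype by treatment interaction and -0.22 for B2m in female KO against WT. Female against male turned to -0.041 for H2-D1 with voom and to 0.00015 for Cd74 without the filter. On leaving out each library in turn, Tau against PBS ranged from -0.048 to 0.16 for H2-K1 and from -0.049 to 0.11 for Tap1, and KO against WT from -0.017 to 0.19 for H2-K1 and from -0.038 to 0.15 for H2-D1. Female against male ranged from -0.064 to 0.16 for H2-D1, from -0.069 to 0.024 for Tap2, from -0.0056 to 0.51 for H2-Aa and from -0.18 to 0.14 for Cd74, and female KO against WT from -0.43 to 0.035 for B2m. The genotype by treatment interaction ranged from -0.031 to 0.72 for Nlrc5 and from -0.79 to 0.063 for Cd74, and the sex by genotype interaction from -0.086 to 0.54 for Ciita. With TMM-scaled library sizes 2 group means moved by more than their SD over 2 libraries, in female WT Tau, to 4.66 CPM for Tap1 and 3.62 CPM for H2-Ab1, and r changed sign for Rfx5 with H2-Aa (-0.027) and with Cd74 (-0.057) and for Ciita with Cd74 (-0.039), none past the threshold. With these sizes the rho of H2-K1 with B2m was 0.81 and passed (permutation p = 0.00518, adjusted 0.0259). Their r of 0.80 did not (permutation p = 0.0241, adjusted 0.12). No paired analysis was possible because the groups share no replicate numbers. Of the log2 differences given for members, 399 values under other settings than leaving out a library kept their direction and side of the threshold. Of the rest, 2 changed sign, 5 became called and 2 lost their call. Groups of 2 or 3 libraries, and counts of 7 to 91 for the class II chains, limit the precision.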
